A study of Mus musculus with 6 samples.

Results

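The genes of the cytosolic ribosome were followed in mouse pancreatic islets across the day. Probes were taken when their RefSeq transcript belonged to a gene whose symbol is Rpl or Rps with a number and an optional a, l or x ending, or to Rplp0, Rplp1, Rplp2 or Rpsa. Genes with a -ps ending and the Rps6k kinases were left out, and the brightest probe stood for each gene. This gave 86 genes of 32451 on the array, 33 of the 40S subunit, 50 of the 60S subunit and 3 of the P stalk. Of these, 85 were annotated as coding for protein, and Rps4l was annotated as a transcribed pseudogene. The choice did not use any measured change.

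Islets had been isolated with collagenase from male C57BL6 mice aged 8 weeks, which ate chow and lived with 12 h of light each day. Collections were 4 h apart, at zeitgeber times ZT0 (lights on), ZT4, ZT8, ZT12 (lights off), ZT16 and ZT20. RNA of 3 to 5 mice was pooled per time and hybridised, labelled with Cy3, to 1 Agilent array per time, so the 6 groups were 6 single arrays. No spread between animals can be had from pooled RNA, and no 2 time points could be tested against each other.

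Each cytosolic ribosome has a small 40S subunit, which reads the mRNA, and a large 60S subunit, which joins amino acids. Its proteins are needed in near equal amounts, and most of their mRNAs begin with a 5′ terminal oligopyrimidine (TOP) tract, a C followed by a run of C and T. Through this tract, translation of the mRNAs follows the nutrient-sensing kinase complex mTORC1 and the RNA-binding protein LARP1. In liver, ribosome synthesis is known to follow the daily rhythm of feeding, and in islets the ribosome serves the heavy output of insulin and other secreted hormones.

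The letters around the annotated start show a pyrimidine run in some of these genes and no run of the length searched in others. The windows below run from 30 bases before to 20 bases from the start, are read 5′ to 3′, and come from RefSeq on GRCm38.p6. Capitals mark the first run of at least 8 bases that begins with C and holds only C and T. It was searched on the gene's strand in the 20 bases before and the 20 bases from the start. Shown are 4 genes that the results below describe in detail and 4 pairs of an ancestral gene and its paralog, because the pairs separate in their values below. Where RefSeq lists several starts, the first entry is shown. A TOP tract begins at the first base of the mRNA and can be shorter than the run searched. A window without capitals is therefore not shown to lack the tract. The runs marked in Rpl39 and Rps27l lie wholly before the annotated start. Rpl39 holds a further such run after its start, which is left in lower case.
Rps18, chr17:33955646-33955695, minus strand: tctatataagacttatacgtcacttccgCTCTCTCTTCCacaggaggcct
Rps6, chr4:86857348-86857397, minus strand: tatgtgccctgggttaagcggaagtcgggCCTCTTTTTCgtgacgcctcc
Rplp2, chr7:141447621-141447670, plus strand: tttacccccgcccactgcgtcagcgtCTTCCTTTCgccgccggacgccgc
Rps19, chr7:24884562-24884611, plus strand: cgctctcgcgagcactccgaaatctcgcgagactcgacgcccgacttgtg
Rpl22, chr4:152325696-152325745, plus strand: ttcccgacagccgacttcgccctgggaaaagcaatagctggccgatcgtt
Rpl22l1, chr3:28805478-28805527, plus strand: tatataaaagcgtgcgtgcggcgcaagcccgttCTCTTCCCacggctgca
Rpl36a, chrX:134585624-134585673, plus strand: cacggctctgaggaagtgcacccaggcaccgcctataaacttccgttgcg
Rpl36al, chr12:69184048-69184097, minus strand: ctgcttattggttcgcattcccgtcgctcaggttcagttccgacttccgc
Rpl39, chrX:37085203-37085252, minus strand: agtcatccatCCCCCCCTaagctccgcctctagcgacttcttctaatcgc
Rpl39l, chr16:10170198-10170247, plus strand: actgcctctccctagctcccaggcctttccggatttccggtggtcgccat
Rps27, chr3:90213629-90213678, minus strand: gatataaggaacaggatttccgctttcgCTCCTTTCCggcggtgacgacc
Rps27l, chr9:66946056-66946105, plus strand: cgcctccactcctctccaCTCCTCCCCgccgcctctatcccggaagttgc

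Of the ribosomal protein genes, 65 matched an entry, with 77 annotated starts. A run of this kind lay in 41.6% of the 77 windows, and in 12.6% of the 32851 windows of all genes. Of the 4 pairs, Rps27 and Rps27l both held the run, Rpl36a and Rpl36al both lacked it, and Rpl22 with Rpl22l1 and Rpl39 with Rpl39l had it in 1 of the 2 genes. The letters CCGGAAG, the core bound by ETS factors, were searched on both strands of the 300 bases around the start. They were present in 35.1% of the windows of ribosomal protein genes and in 8.86% of all windows. These are counts of letters near annotated starts, which can lie some bases away from the starts used in islets.

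The arrays differed in ways that touch every value below. The 75th percentile of processed signal, on which each array was scaled, ran from 506 at ZT4 to 2090 at ZT8, and 66.1% of spots at ZT4 but 84.4% at ZT0 were well above background. The ZT0 array had 1743 outlier spots, the other arrays 166 to 247. The arrays for ZT8, ZT12, ZT16 and ZT20 shared 1 scan, ZT4 was in another scan of that date and ZT0 in a scan of another date. For ZT0 and ZT4, time and scan cannot be told apart. All 14 islet endocrine markers, insulin and glucagon genes among them, were above background on all 6 arrays. All 12 lymphocyte markers were too, and their summed level differed widely between arrays. Hepatocyte markers summed to 147 times the 75th percentile at ZT20 and to 0.278 to 0.552 times on the other arrays. Intestinal markers (3 of 4 had a probe) summed to 144 times at ZT4 and to 0.855 to 15.3 times elsewhere.

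Nearly all ribosomal protein genes were bright: 81 of the 84 tested lay among the brightest 10% of the 24127 genes tested. Rpl3l and Rpl10l, whose products are known from striated muscle and testis, were each above background on only 2 of 6 arrays and were not tested. Rpl39l was above background on 4 arrays, and the other 83 genes on all 6. A log2 level is given here relative to the 75th percentile of its array, and a deviation is a gene's log2 level minus its own mean over the 6 arrays. Levels of different probes are not compared.

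The family was high on the ZT4 array and low on the ZT16 and ZT20 arrays. Its median deviations, from ZT0 to ZT20, were 0.46, 1.14, -0.48, 0.17, -0.62 and -0.68, with standard deviations over the 84 genes of 0.72, 0.38, 0.29, 0.50, 0.36 and 0.34 in that order. The median over all genes tested stayed between -0.03 and 0.06. The highest array was ZT4 for 69 of 84 genes (23.4% of all genes), ZT0 for 8 (21.5%) and ZT12 for 7 (16.6%). The lowest was ZT20 for 41 (11.5% of all genes), ZT16 for 22 (12.7%), ZT8 for 12 (8.63%), ZT0 for 8 (23.7%) and ZT12 for 1 (21.1%).

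The size of this pattern, and its direction at ZT0 and ZT8, depended on the scaling. In the authors' value table, in which all arrays share nearly the same distribution, the medians from ZT0 to ZT20 were -0.19, 0.16, 0.12, 0.26, -0.16 and -0.18. The sign at ZT0 and ZT8 was thus opposite, and the value at ZT4 was 0.98 lower than with 75th percentile scaling. In that table ZT12 was the highest array for 33 genes (21.6% of all genes), ZT4 for 24 (19.7%) and ZT0 for 15 (19.1%). With the 75th percentile scaling, the brightest 10% of all genes had medians of 0.09, 0.81, -0.39, 0.18, -0.25 and -0.39 from ZT0 to ZT20, so much of the family's deviation was found in bright genes at large. The family median minus that of the brightest 10% was 0.37, 0.33, -0.08, -0.01, -0.37 and -0.30 over the same arrays. In the authors' table the same difference was -0.08, 0.11, 0.05, 0.21, -0.19 and -0.18. Positive at ZT4 and negative at ZT16 and ZT20 in both, it differed in sign at ZT0, ZT8 and ZT12. The plot of family medians shows both scalings.

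**Figure D1:**
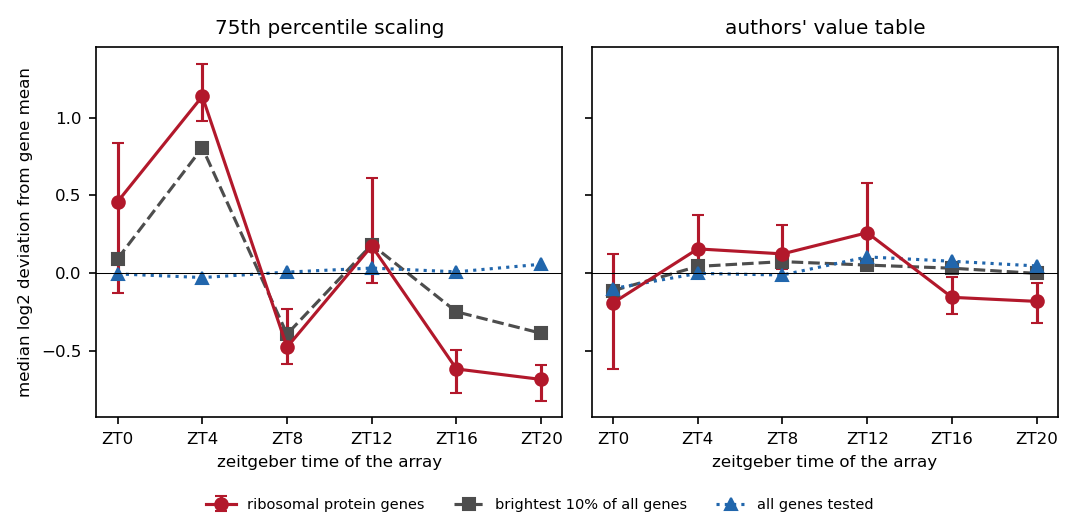
Median log2 deviation from the gene's mean on each array (y axis) by zeitgeber time (x axis) for the 84 ribosomal protein genes (red, bars from the 25th to the 75th percentile of genes), the brightest 10% of genes (grey) and all genes tested (blue). With 75th percentile scaling the family runs from 1.14 at ZT4 to -0.68 at ZT20, and in the authors' value table from 0.26 at ZT12 to -0.19 at ZT0.

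Among the 83 genes above background on every array, 73 were at least 2-fold above the median of the other 5 arrays at ZT4, where 23.9% of all genes were, and 0 were 2-fold below (15.8% of all genes). At ZT0, 35 were 2-fold above (15.2% of all) and 7 below (18.4%). At ZT8 the counts were 0 above (6.35%) and 2 below (1.74%), and at ZT12 they were 17 above (17.6%) and 1 below (18.1%). At ZT16, 0 were above (10.1%) and 13 below (12.3%), and at ZT20, 0 were above (10.3%) and 16 below (11.9%). In shares, 88.0% of the family stood above at ZT4, and the 15.7% below at ZT16 and 19.3% below at ZT20 were closer to the background. Without the ZT4 array, 5 genes were 2-fold below at ZT16 (10.5% of all genes), 7 at ZT20 (9.22%) and 43 above at ZT0 (17.2%). In the authors' table the counts were far smaller. There, 0 genes were 2-fold above at ZT0 (11.7% of all genes) and 12 below (21.7%), 6 above at ZT4 (17.1%) and 1 below (15.1%), and 5 above at ZT8 (6.61%) and 0 below (2.17%). At ZT12, 8 were above (16.4%) and 1 below (16.4%), at ZT16, 0 above (11.3%) and 6 below (11.4%), and at ZT20, 1 above (10.6%) and 5 below (12.3%). No array had a share of the family beyond the background there.

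The 4 arrays of the shared scan allow a comparison with no change of scan. Among them ZT12 was the highest for 81 of 84 genes, against 37.5% of all genes and 64.3% of the brightest 10%, and the exceptions were Rpl10, Rps27l and Rps4l. The ZT12 level exceeded that at ZT16 in 81 genes, against 48.2% of all genes and 66.7% of the brightest 10%. The median difference was 0.76 log2 units, where all genes had a median of -0.05 and the brightest 10% had 0.44. Over ZT20 the median difference was 0.83, against -0.12 over all genes and 0.58 over the brightest 10%. Higher at ZT12 than at ZT20 were 81 genes, 46.5% of all genes and 70.3% of the brightest 10%. Over ZT8 the family's median was 0.64, with 83 genes higher at ZT12 (52.4% of all genes). The brightest 10% had the same median of 0.64, with 81.1% of its genes higher at ZT12.

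The authors' table, in which bright genes at large showed no such shift, gave smaller differences of the same sign over ZT16 and ZT20. There ZT12 was the highest of the 4 for 58 genes, against 39.1% of all genes and 40.9% of the brightest 10%. The median difference over ZT16 was 0.44 in the family (70 genes higher at ZT12), -0.03 over all genes (49.0% higher) and -0.01 over the brightest 10%. Over ZT20 it was 0.49 in the family (73 genes), 0.03 over all genes (50.8% higher) and 0.05 over the brightest 10%. Over ZT8 it was 0.10 in the family (59 genes), under the 0.15 of all genes, of which 57.4% were higher at ZT12. ZT8 exceeded ZT16 in 62 genes with 75th percentile scaling (45.5% of all genes) and in 73 in the authors' table (41.9% of all genes). With 1 array per time, these differences have no replicate check.

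**Figure D2:**
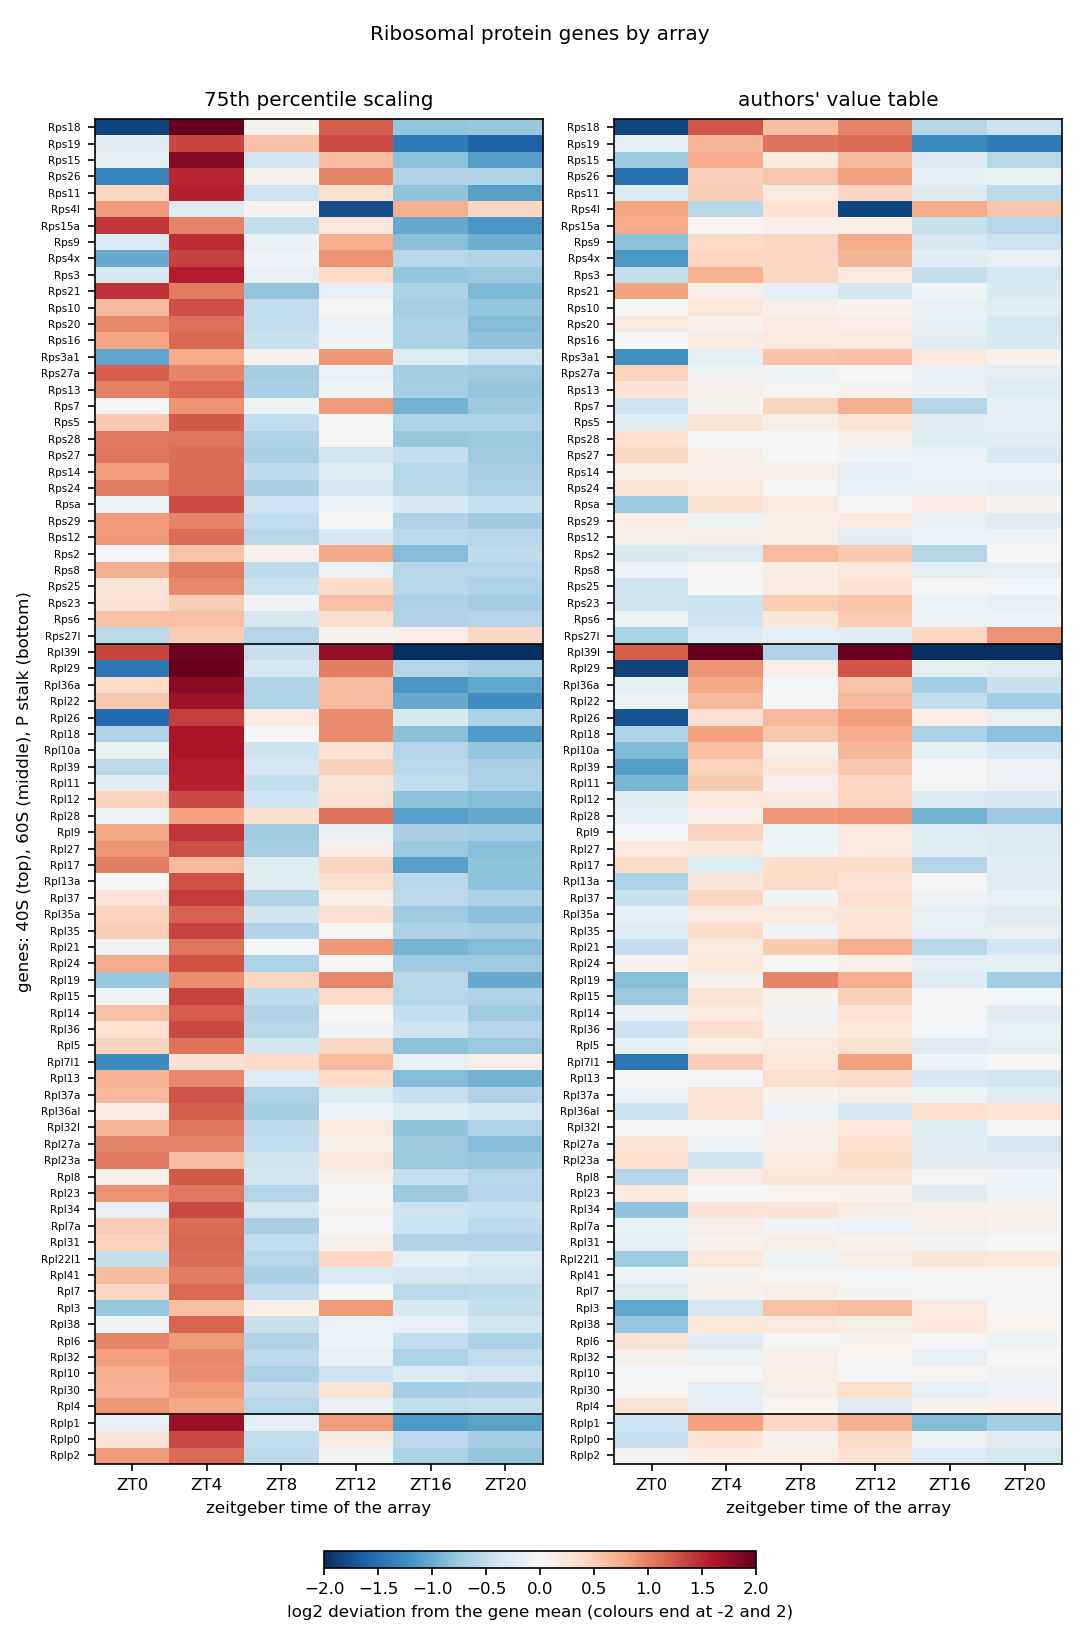
Log2 deviation of single ribosomal protein genes from their own mean (colour, red above and blue below) by array (x axis), ordered by subunit and by range within it, with 75th percentile scaling (left) and in the authors' value table (right). Of all 84 genes tested, 69 are highest at ZT4 on the left and 24 on the right, and ZT16 and ZT20 are below the mean for most genes in both.

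Rhythm was tested with a 24 h cosine, fitted by limma on every gene. By its moderated F test with Benjamini-Hochberg adjustment over all genes, 0 of 84 ribosomal protein genes passed 0.05, as did 0.0% of all genes. At an unadjusted p under 0.05 there was 1 gene, Rps19, or 1.19% of the family, against 4.0% of all genes. The median fitted peak-to-trough amplitude was 1.52 log2 units in the family and 1.33 over all genes, and 0.55 in the family and 1.28 over all genes in the authors' values. The fitted peak was nearest ZT4 for 60 genes (14.4% of all genes), ZT8 for 19 (19.3%), ZT0 for 3 (13.9%), ZT12 for 1 (12.6%) and ZT20 for 1 (21.2%). The 19 genes are 22.6% of the family, near the share over all genes. The count of 1 gene rested on which arrays were used: it was 17 without ZT8 (16.7% of all genes then passed), 3 without ZT12 (3.57% of the family, against 10.2% of all genes) and 0 without any one of the other 4 arrays (1.44% to 3.54% of all genes). In an exact permutation test over the 720 orders of the arrays, which cannot give a p below 0.0167, the lowest p in the family was 0.15, while 2.51% of all genes had an unadjusted p under 0.05.

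The P stalk is the arm of the 60S subunit that draws in elongation factors. Rplp0, its base, had log2 levels of 7.18, 8.24, 6.42, 7.08, 6.39 and 6.23 from ZT0 to ZT20. Rplp2, one of the 2 small acidic proteins on that base, had 8.27, 8.56, 6.90, 7.36, 6.79 and 6.66 at the same times. With 75th percentile scaling both were highest at ZT4 and lowest at ZT20 on the brightest probe. The other probes of Rplp0 were highest at ZT4 too, but lowest at ZT8 and at ZT0. In the authors' table Rplp0 and Rplp2 were both highest at ZT12. Rplp1, the other acidic protein, had 4.97, 6.84, 4.94, 5.96, 4.00 and 4.06, and its highest array was 7.16-fold above its lowest, against 4.04-fold for Rplp0 and 3.74-fold for Rplp2. Rpsa, a 40S protein also known as the laminin receptor, had 6.81, 8.19, 6.47, 6.81, 6.57 and 6.42 on the brightest probe. With 75th percentile scaling ZT4 was 1.38 log2 units over the next array, ZT12. In the authors' table the lead of ZT4 was smaller. The other 3 probes of Rpsa did not all follow the brightest. Probe 3 was lowest at ZT4, 1.26 below its own mean, and highest at ZT12. The span of the probes of Rpsa, 3.58 at ZT4, was the widest of the family there. Fitted amplitudes were 1.34 ± 0.85 for Rplp0, 2.15 ± 0.96 for Rplp1 and 1.61 ± 0.83 for Rplp2 (± SE), and none of these or Rpsa passed the cosine test at an adjusted p of 0.05.

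The 33 genes of the 40S subunit had median deviations of 0.59, 1.12, -0.45, 0.06, -0.63 and -0.71 from ZT0 to ZT20, and the 48 tested genes of the 60S subunit 0.46, 1.19, -0.48, 0.24, -0.58 and -0.65. Both had the same sign on each array, and the largest gap between them was at ZT12, 0.06 against 0.24. The difference between subunits was not tested. Over all 6 arrays, 70 of 84 genes stayed within 1 log2 unit of the family median, and 73 did in the authors' table.

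Rps19 was the 40S gene with the largest fitted swing. It encodes a protein needed for 40S maturation, and its human counterpart is mutated in Diamond-Blackfan anaemia. Its log2 levels, from ZT0 to ZT20, were 3.24, 4.77, 4.03, 4.74, 2.04 and 1.83. The first 4 arrays were all above the last 2, by at least 1.19 log2 units. Its amplitude was 2.96 ± 0.88 (SE) with a fitted peak at ZT7.08, an unadjusted p of 0.0346 and an adjusted p of 0.754 by limma. The exact permutation p was 0.15, and the gene had 1 probe. Relative to the family median it stood 1.06 higher at ZT8, 1.12 higher at ZT12 and -0.93 at ZT20, and these values were 0.96, 0.86 and -1.23 in the authors' table.

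Rps18, which lies in the head of the 40S subunit and whose start is shown above with its pyrimidine run, was the gene furthest below the family median at ZT0 and furthest above it at ZT4 with 75th percentile scaling. Its levels were 2.48, 6.42, 4.41, 5.53, 3.56 and 3.58 from ZT0 to ZT20, a 15.4-fold range. The ZT0 value was 2.31 below the family median, and the ZT4 value 0.95 above. In the authors' table the ZT0 value was 1.64 below, where Rpl29 was lower at 1.66 below, and the ZT4 value was 1.09 above, where Rpl39l was higher at 1.99 above. Its second probe was also lowest at ZT0, by 1.14 below its own mean against 1.85 below for the brightest, but it was highest at ZT12. Rps4x, the X-linked 40S protein gene, was likewise lowest at ZT0, with 4.14 there and 6.53 at ZT4. In contrast, Rps21 and the brightest probe of Rps15a, both of the 40S subunit, were highest at ZT0. Rps15a had 7.58 there and 7.16 at ZT4, and Rps21 had 7.16 and 6.76. The second probe of Rps15a was highest at ZT4, with 7.62 there and 6.37 at ZT0, and the dimmest, above background on 3 arrays, was highest at ZT20. On their brightest probes the 2 genes stood 0.97 and 0.98 above the family median at ZT0, but at ZT8 Rps21 was 0.31 below it, the lowest of the family there. The widest spread of the family on any array, 0.72, was this one at ZT0.

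Other 40S genes had small ranges on the probe used. Rps6, the protein phosphorylated by S6 kinases downstream of mTORC1, had 7.23, 7.23, 6.32, 6.97, 6.03 and 6.05 from ZT0 to ZT20, a 2.31-fold range. Its second probe spanned 4.71-fold and was lowest at ZT0, and its dimmest spanned 2.17-fold. Rps23, in the decoding centre and with 1 probe, had 6.37, 6.57, 6.00, 6.66, 5.43 and 5.37, a 2.44-fold range. Over the 83 genes above background on all arrays, the range ran from 2.11-fold to 15.4-fold, with a median of 3.77-fold.

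Among 60S genes, Rpl26 and Rpl29 were the counterparts of Rps18. Rpl26, which sits near the peptide exit and is also known to bind p53 mRNA, had 4.09, 7.02, 5.81, 6.59, 5.34 and 5.01 and stood 2.02 below the family median at ZT0. Rpl29, a protein of the outer surface that mice can live without, had 4.89, 8.34, 6.00, 7.35, 5.75 and 5.66 and stood 0.87 above the family median at ZT4. In the authors' table both genes were lowest at ZT0 and highest at ZT12. With 75th percentile scaling both were, on these probes, lowest at ZT0 and highest at ZT4. The second probe of Rpl29 kept that order, but the second probe of Rpl26 did not: it was lowest at ZT16 and highest at ZT12, and at ZT0 it was 0.12 above its own mean. Rpl19, part of a bridge between the subunits, had 4.11, 5.80, 5.30, 5.84, 4.33 and 3.86 and stood 0.91 above the family median at ZT8. Rpl4, which lines the peptide exit tunnel, had 7.44, 7.32, 5.98, 6.41, 6.05 and 6.08, so only ZT0 and ZT4 were above 7 with 75th percentile scaling. In the authors' table the ZT4 value of Rpl4 was below its own mean, and ZT0 was its highest array. Rpl10, added late as the 60S subunit becomes able to join the 40S, had 8.35, 8.58, 7.01, 7.22, 7.37 and 7.30, and was 0.59 below the family median at ZT12.

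**Figure D3:**
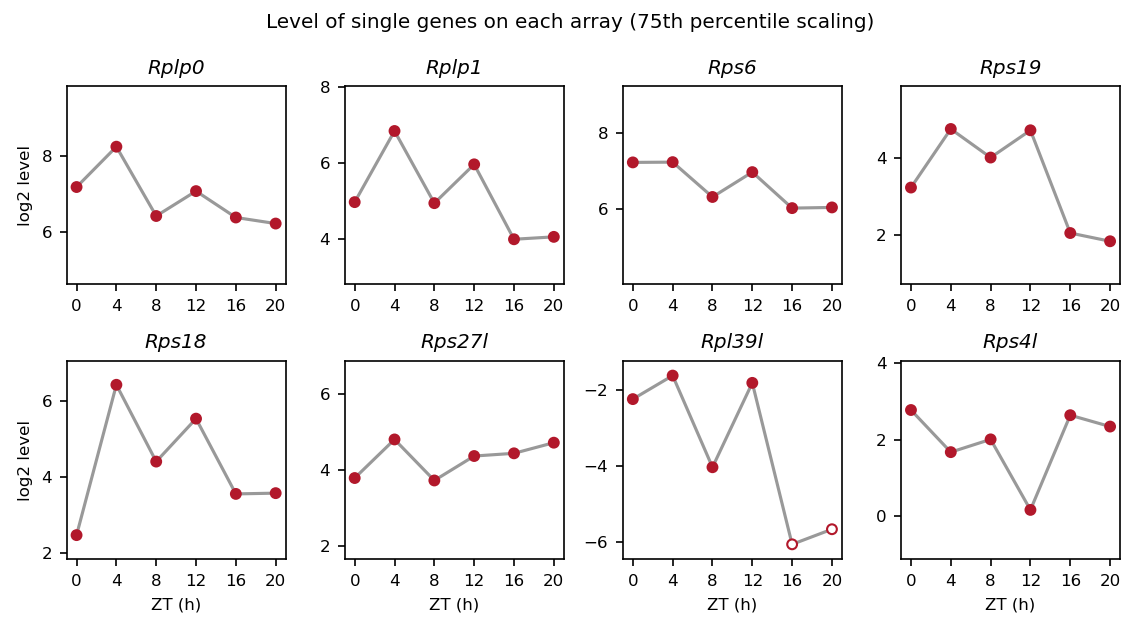
Log2 level relative to the array's 75th percentile (y axis) by zeitgeber time in hours (x axis) for 8 genes, 1 point per array, all y axes of equal span. Open points for Rpl39l were not well above background. Rplp0, Rplp1, Rps18 and Rps19 are highest at ZT4, whereas Rps4l is lowest at ZT12 (0.16). With this scaling Rps27l has the smallest range, 1.08, but in the authors' table its range is wider than that of Rps6.

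Several paralogs parted from the genes they arose from. Each is described by its deviation minus that of its ancestral gene on the same array, so a positive value means that the paralog stood higher than the ancestral gene relative to their own means. Rps27l, which in human and mouse cells is a target of p53, had 3.78, 4.80, 3.72, 4.36, 4.43 and 4.71 from ZT0 to ZT20, and Rps27 had 8.59, 8.63, 6.86, 7.15, 7.04 and 6.81. The difference, in the same order, was -1.59, -0.62, 0.07, 0.42, 0.60 and 1.12. In the authors' table it was -1.03, -0.38, -0.20, -0.18, 0.57 and 1.22, with opposite sign at ZT8 and ZT12. Rps27l had a second high array at ZT20, where nearly all of the family was low, and it was the gene furthest above the family median there, by 1.09.

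Rpl22l1 parted from Rpl22, an RNA-binding 60S protein, in a similar way. Rpl22l1 had 4.63, 6.22, 4.54, 5.54, 4.91 and 4.82, and Rpl22 had 6.48, 7.65, 5.33, 6.58, 4.94 and 4.71. Their difference was -1.01, -0.59, 0.05, -0.20, 0.81 and 0.94 from ZT0 to ZT20, and -0.61, -0.44, -0.06, -0.51, 0.73 and 0.89 in the authors' table. The paralog was thus relatively high at ZT16 and ZT20 in both scalings. The second probe of Rpl22 was less low there, at -0.50 and -0.52 from its own mean, against -1.01 and -1.24 on the brightest. Rpl36al, with 6.02, 7.04, 5.17, 5.77, 5.61 and 5.50, differed from Rpl36a, with 6.25, 7.64, 5.23, 6.45, 4.67 and 4.80, by -0.24, -0.61, -0.08, -0.69, 0.93 and 0.69. In the authors' table the last 2 values were 1.02 and 0.70. On the brightest probes of these 3 pairs the paralog was above its ancestral gene, relative to their means, at ZT16 and ZT20 and below it at ZT0 and ZT4. Other probes did not all keep this. At ZT4 Rpl22l1 was at 1.11, above the second probe of Rpl22 at 0.58. At ZT0 Rpl36al was at 0.16, slightly above the dimmest probe of Rpl36a at 0.12. Each pair rests on single arrays and was not tested.

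Rpl39l and Rps4l were the extremes of the family. Rpl39l, a paralog of Rpl39 best known from testis, had -2.24, -1.63, -4.03 and -1.82 on the first 4 arrays, and its ZT16 and ZT20 spots were not well above background. It was at least 11.7-fold higher at ZT4 than at ZT16, where the lowest detected signal served as the bound. Rpl39, also of the exit tunnel, had 5.80, 7.90, 5.99, 6.81, 5.79 and 5.68. Rps4l, the transcribed pseudogene of the Rps4x family, ran against the others, with 2.78, 1.67, 2.01, 0.16, 2.64 and 2.34. Its lowest array was ZT12, as for no other of the 84 genes with 75th percentile scaling and for 5 of them in the authors' table. At ZT12 it stood 1.95 log2 units below the family median, or 2.09 in the authors' table. Its difference from Rps4x was 1.86, -1.64, 0.17, -2.67, 1.28 and 1.01.

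Rpl7l1, a nucleolar protein related to Rpl7, was dim, with -3.52, -1.93, -1.86, -1.61, -2.39 and -2.13. It was lowest at ZT0, as Rps18 and Rpl26 were. At ZT4 it stood 0.83 below the family median with 75th percentile scaling but 0.34 above it in the authors' table. Rpl7 had 7.17, 7.89, 6.29, 6.75, 6.23 and 6.26. Rpl3, which reaches towards the peptidyl transferase centre, had 4.67, 6.03, 5.53, 6.28, 5.13 and 4.95, and its paralog Rpl3l had only values near background.

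How far a single gene can be read is shown by the 49 genes that had several tested probes, 130 probes in all. The deviations of probes of 1 gene spanned a median of 1.06 log2 units at ZT0, and more than 1 unit in 26 of 49 genes. On the later arrays, ZT4 to ZT20, that median was 0.62, 0.31, 0.56, 0.34 and 0.21. All probes of a gene had the same highest array in 30 of the 49 genes and the same lowest array in 13. Rps2, a 40S protein at the mRNA entry, had deviations from the probe's own mean of -0.02 at ZT0 on its brighter probe and of -2.85 there on the other, which was highest at ZT4. The third probe of Rplp0 had 4.57 at ZT0 and 7.54 at ZT4, so there the gap was 2.98, where the brightest probe gave 1.06. Probes thus differed most at ZT0, the array with the most outlier spots. With the median over a gene's probes in place of the brightest, the family median at ZT0 was 0.13, against 0.46. Rps2 and Rpl13 were named after their values were seen. Many ribosomal protein genes have near-identical processed copies elsewhere in the genome, and whether a probe also binds transcripts of such copies was not tested.

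**Figure D4:**
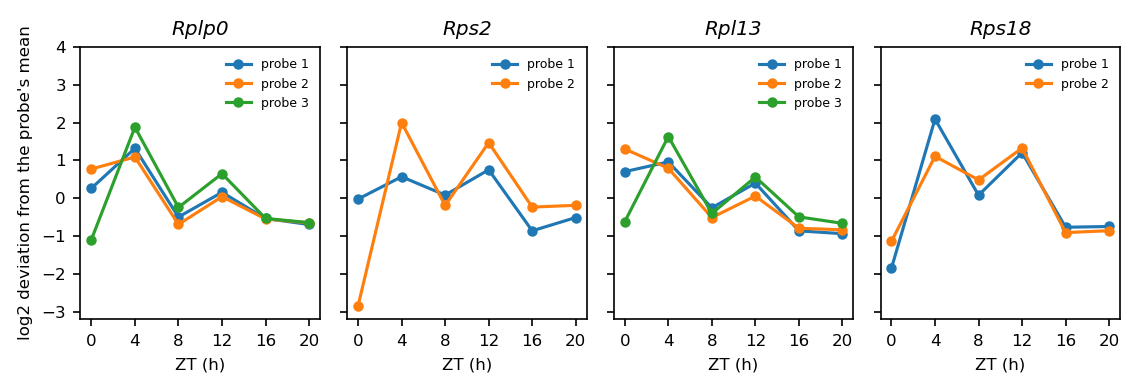
Log2 deviation from the probe's own mean (y axis) by zeitgeber time in hours (x axis) on every tested probe of 4 genes, 1 line per probe, numbered by brightness. At ZT0 the probes of Rps2 part (-0.02 and -2.85), the dimmest probe of Rplp0 is at -1.10 where the others are above 0, and both probes of Rps18 are below 0 (-1.85 and -1.14).

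Other genes of the translation apparatus were read from lists. Of 22 translation factors and other TOP genes, 22 were measured, and 0 passed the cosine test after adjustment or at an unadjusted p under 0.05. Their median deviations were -0.01, 0.90, -0.37, 0.63, -0.42 and -0.55 from ZT0 to ZT20, so the list was high at ZT4, as the ribosomal protein genes were, and higher than they were at ZT12. In the authors' table the list was at -0.22, -0.01, 0.13, 0.45, -0.13 and -0.16, with the ZT4 value near 0. Eif3k and Eif3h, subunits of initiation factor eIF3, had the widest ranges of the list. Eif3k had 2.90, 6.07, 4.03, 5.35, 4.18 and 3.95, and Eif3h had 4.98, 6.83, 4.32, 5.83, 4.05 and 3.90. ZT4 and then ZT12 were the highest arrays in both.

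Ribosome biogenesis genes, which make rRNA and assemble the subunits, were all 36 measured. None passed after adjustment, and 2 had an unadjusted p under 0.05, where 4.0% of all genes did. Their medians were -0.45, 0.35, -0.11, 0.66, -0.26 and -0.37, and in the authors' table -0.44, 0.24, 0.04, 0.60, -0.15 and -0.29. ZT12 was the highest median in both. Its widest ranges were those of Nob1, which trims the end of 18S rRNA, and Taf1b, of the RNA polymerase I initiation complex, and both were not well above background at ZT4. The 76 measured of 78 mitochondrial ribosomal protein genes had medians of -0.61, 0.67, -0.37, 0.33, -0.05 and -0.19, with 0 genes at an unadjusted p under 0.05. Of these 76 genes, 40 were lowest at ZT0, against 23.7% of all genes. Mrpl23 had 2.56, 5.70, 3.38, 4.54, 3.75 and 3.42, and Mrpl14 had 0.88, 3.84, 1.77, 3.00, 1.92 and 1.87. At ZT0 the mitochondrial list lay below its mean in both scalings (-0.66 in the authors' table), where the cytosolic genes changed sign with the scaling.

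The mTORC1 and translation control genes did not share these medians. All 22 were measured, none passed after adjustment, and 1 had an unadjusted p under 0.05, a share near the 4.0% of all genes. Their medians stayed between -0.10 and 0.07 on all 6 arrays with 75th percentile scaling. In the authors' table they lay between -0.12 and 0.165, where the ribosomal protein genes lay between -0.19 and 0.26. The single gene was Myc, a transcription factor that drives ribosome synthesis, with 0.03, -0.32, 0.54, -0.30, -3.08 and -1.89 from ZT0 to ZT20, an amplitude of 3.01 ± 0.96 (SE), an unadjusted p of 0.0452 and an adjusted p of 0.754 by limma. Its ZT16 and ZT20 levels were below all others, as those of Rps19 were. Rheb, the GTPase that turns on mTORC1, had 4.04 at ZT0 and 1.04 at ZT4, and 1.63 to 2.57 on the other arrays.

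Markers of other cells differed widely between the arrays, and some lists were high or low on the same arrays as the ribosomal protein genes. The median deviation of the 12 lymphocyte markers was 0.05, 2.09, 0.79, 2.17, -3.02 and -2.68 from ZT0 to ZT20. Their summed level was 133, 368, 98.3, 275, 37.0 and 21.9 times the 75th percentile in that order. The macrophage list (9 of 10 with a probe, all above background on all arrays) summed to 44.1, 348, 65.0, 196, 17.8 and 17.1. Stromal markers (6 of 6) summed to 82.4 to 140 on the first 4 arrays and lay lower at ZT20 and lowest at ZT16 (21.0), and acinar markers (10 of 10) summed to 1918, 1794, 800, 472, 1076 and 1462. Endothelial markers (5 of 5) summed to 18.4 to 61.3, highest at ZT4. Their median deviation at ZT4 was, however, -0.65, and of the 5 genes 1 was highest and 1 lowest there. Islet endocrine markers (13 of 14 tested) had medians of 0.97, -1.54, 0.26, -2.40, 1.21 and 1.06, lowest at ZT12 and ZT4. Their summed level was 1737, 1296, 898, 513, 1467 and 1276, so by that measure ZT12 and ZT8 were lowest. With 75th percentile scaling Ins1 (8.29) and Ins2 (8.75) were themselves highest at ZT4. In the authors' values no tested endocrine marker, Ins1 and Ins2 included, was highest on that array. At ZT4 the family, the lymphocyte list and the macrophage list were all high, and at ZT16 and ZT20 all were low. At ZT0 the family's median was 0.46 with lymphocyte markers at 0.05 and endocrine markers at 0.97, and at ZT8 it was -0.48 with lymphocyte markers at 0.79. At ZT12 both immune lists were high, and the family was at 0.17. Those medians are with 75th percentile scaling. In the authors' table the family was at -0.19, 0.12 and 0.26 at ZT0, ZT8 and ZT12. Lymphocyte markers were there at 0.10, 1.06 and 2.08, and endocrine markers at 0.245, 0.81 and -2.54. The part of these cells in the levels of ribosomal protein genes was not tested. In pooled tissue RNA, more cells of a type and more RNA per cell cannot be told apart.

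**Figure D5:**
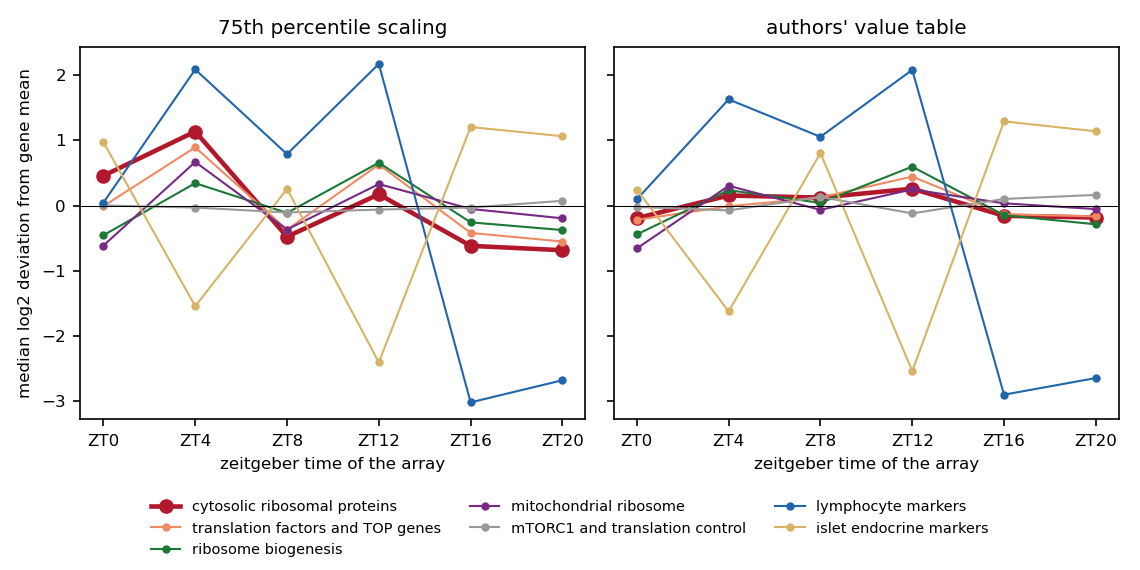
Median log2 deviation from the gene's mean (y axis) on each array (x axis) for the cytosolic ribosomal protein genes (thick red) and 6 other lists, with 75th percentile scaling (left) and in the authors' value table (right). On the left, lymphocyte markers are at 2.09 at ZT4, 2.17 at ZT12 and -3.02 at ZT16, and islet endocrine markers at -1.54, -2.40 and 1.21. The mTORC1 list stays near 0 there. On the right it lies between -0.12 and 0.165, and the ribosomal protein genes lie between -0.19 and 0.26.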

How the data were processed

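RNA of 6 pools of islets was measured on 6 single-colour Agilent arrays. Per the file headers, the authors' scanner files came from Agilent Feature Extraction 11.0.1.1 (version also per the submitters' processing notes) and held processed signal as a linear intensity, background-subtracted and with no normalization between arrays. Other deposited columns held flags for spots well above background, saturated spots (0 here) and outlier spots. The authors also deposited a table of log2 values, which covered 30170 probes with column medians of 8.62 to 8.63 and genes not centred. Each column correlated with its own array's log2 processed signal at Pearson's r of 0.9987 to 0.9998 over probes. How those values were normalized was not given in the sources used here.

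Control spots were removed, spots of a probe were averaged, and log2 processed signal minus the array's 75th percentile was used. Of 39429 probes, 27234 (69.1%) took a symbol through their RefSeq accession. Tests used probes that stood well above background on 3 or more arrays and had no array with all their spots marked as outliers, which left 28794 probes and 24127 genes after the brightest probe per gene was kept. A probe without a symbol counted as a gene of its own name. A 24 h cosine was fitted with limma 3.58.1 in R 4.3.3 (moderated F test, 3 residual degrees of freedom, Benjamini-Hochberg over all genes, threshold 0.05). The fit was tested on simulated data with independent noise and no difference between scans, so its power on these arrays was not measured. Amplitude is fitted peak minus trough. The number of arrays limits the precision, and SEs measure the spread around the curve, not between animals.

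The genes and lists were chosen with earlier results of these data known. Genes named were Rplp0, Rplp1, Rplp2, Rpsa, the 4 with the largest amplitude, the 4 with the smallest range, the 2 furthest above and below the family median on each array, paralogs with their ancestral genes, and the 2 of widest range in each other translation list. Promoter windows were matched by symbol. Results for some of the genes so chosen are not reported here.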

Additional observations from a re-analysis of the deposited data

How the results depend on the processing

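Of 1128 recomputed values, 1057 stayed (medians within 0.585 log2 units, a 1.5-fold change, counts within 1.5 times, and 419 amplitudes of single genes on the same side of the test) and 71 moved. All 419 amplitudes stayed because 0 genes passed the test under any setting, so they do not measure stability. Of 133 counts of ribosomal protein genes, 44 moved, and of 72 family medians, 6 did. The family median at ZT16 counted as stayed, with -0.62 in the main scaling and -0.16 in the authors' table. The alternatives were quantile normalization, median scaling, the authors' value table, normexp background correction, 2 detection filters, the median over probes, each array left out, scan as a covariate and an exact permutation test. Not each applied to each result: leaving out arrays was not run for the other lists' medians, scan and permutation were run for the cosine fit, and differences within the shared scan, between paralogs and from the family median were recomputed with quantile normalization and the authors' table. Leaving ZT0 or ZT4 out of the 2-fold counts was chosen after seeing the data. Quantile normalization and the authors' table gave the same values here: the median deviation was -0.191 at ZT0, 0.156 at ZT4 and 0.124 at ZT8, and the counts 2-fold above and below were 0 and 12 at ZT0, 6 and 1 at ZT4, 5 and 0 at ZT8, 8 above at ZT12, 6 below at ZT16, and 1 and 5 at ZT20. Median scaling gave 13 below at ZT8 (5.65% of all genes), 30 above at ZT12 (22.7%) and 25 below at ZT20 (13.2%). It shifted the median of all genes by 0.14 at ZT4, -0.19 at ZT8, 0.13 at ZT12 and -0.10 at ZT20. Normexp shifted it by -0.21, 0.43 and -0.19 at ZT0, ZT4 and ZT8, where the family minus all genes was then 0.72, 0.65 and -0.26, against 0.46, 1.17 and -0.48. Normexp and the median over probes each gave 1 above (3.59% and 6.87% of all genes) and 1 below at ZT8 (1.5% and 1.46%), and the median over probes gave 26 above at ZT12 (17.2%). Without ZT4 there were 4 below at ZT0 (17.7%), 2 above (7.86%) and 0 below (1.02%) at ZT8, 5 below at ZT16 (10.5%) and 7 at ZT20 (9.22%); without ZT0 there were 0 below at ZT8 (1.33%), 15 at ZT16 (13.6%) and 20 at ZT20 (13.4%). The count at an unadjusted p under 0.05 was 2 (2.38% of the family) with quantile normalization, the authors' table and normexp. Of all genes, 4.61%, 4.7% and 3.95% passed there. The count was 0 with scan as a covariate (1.82% of all genes) and 0 to 17 with 1 array left out (1.44% to 16.7% of all genes). Adjusted p-values passed for 0 genes under each of these. The cause of these changes was not tested. No paired analysis was possible because each time had 1 array. Of the lists' medians, 21 of 504 moved. Signal over background limits Rpl39l, Rpl3l, Rpl10l and Rpl7l1, and the ZT4 array most.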
